A study of Rattus norvegicus with 10 samples.

Results

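Mog, Mobp, Opalin, Ermn and Aspa were followed across all libraries of a series in which miR-145 was raised or blocked in cells of the rat oligodendrocyte lineage. They are 5 of the 23487 genes in the count table, each carried by 1 gene ID. They are transcripts that oligodendrocytes (OLs) make late in their maturation, and they were chosen by their measured fold changes: their levels were higher in OLs given the miR-145 mimic than in OLs given the control mimic, while genes of earlier stages were lower. Their values in that contrast are therefore a description with no test. The series held 10 libraries of RNA from primary cells of the cortex of newborn Sprague-Dawley rats, 2 for each of 5 groups. OLs received the miR-145 mimic (OL miR-145), the miR-145 and miR-219 mimics together (OL miR-145+miR-219) or a control mimic (OL miR-ctl) at 30 nM and were assayed after 5 days of differentiation. Oligodendrocyte progenitor cells (OPCs) received an inhibitor of miR-145 (OPC anti-miR-145) or a control inhibitor (OPC anti-miR-ctl) at 30 nM and were assayed 24 h later. One label of the OL miR-145 libraries also names miR-219, whereas their titles and descriptions name miR-145 alone, and the titles were used. The labels do not say whether the libraries of a group came from separate cultures. The reporting summary of the study, in words written for mice, describes the replicates of primary cultures as biological, each from its own animal, and does not say whether a number shared between groups marks the same culture.

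Myelin is built in an order. OPCs that stop dividing first make the major structural proteins of the sheath, such as Mbp and Cnp, under transcription factors that include Sox10 and Myrf. Mog, Opalin, Mobp, Ermn and Aspa come on afterwards, in cells that are completing the sheath. Mog is an immunoglobulin-domain glycoprotein of the outermost myelin surface and a known target of autoantibodies in demyelinating disease. Mobp is a small basic protein of compact myelin. Opalin is a transmembrane sialoglycoprotein of OLs. Ermn (ermin) is a cytoskeletal protein of OLs that binds actin. Aspa (aspartoacylase) splits N-acetylaspartate into aspartate and acetate, and its loss causes the leukodystrophy Canavan disease.

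The agents act through the seed of a mature microRNA, bases 2 to 8, which pairs with target transcripts. The mature sequences below, from RefSeq (GRCr8), are those of rno-miR-145-5p (chromosome 18, minus strand) and rno-miR-219a-5p (chromosome 3, minus strand), shown with the seed in capitals because the 2 agents share no seed; the labels do not give the arm of miR-219.
rno-miR-145-5p: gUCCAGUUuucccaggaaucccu
rno-miR-219a-5p: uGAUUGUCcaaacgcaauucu

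The 5 genes lie on 5 chromosomes of GRCr8, Opalin on chromosome 1, Ermn on chromosome 3, Mobp on chromosome 8, Aspa on chromosome 10 and Mog on chromosome 20. Windows of 300 bases around a transcription start, 250 before it and 50 after, were found in RefSeq for 3 of them: Opalin, Mobp and Aspa. Each window starts from 1 transcript, and its start site lay inside the annotated gene. The windows of Opalin and Mobp are shown because they hold letters recognised by regulators of the lineage: ACAAAG, the core of Sox sites, or the Myrf core CTGGCAC or CTGGTAC, on either strand, in capitals. ACAAAG was found in 18.8% of 33469 promoter windows of the same length, and the Myrf core in 6.78%.
Opalin, chr1:249858141-249858440, minus strand: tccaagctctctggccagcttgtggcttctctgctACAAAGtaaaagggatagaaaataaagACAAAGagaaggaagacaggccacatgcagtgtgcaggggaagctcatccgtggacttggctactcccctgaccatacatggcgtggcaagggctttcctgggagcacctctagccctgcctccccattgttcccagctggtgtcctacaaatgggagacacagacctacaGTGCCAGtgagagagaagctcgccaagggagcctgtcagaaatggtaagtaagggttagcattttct
Mobp, chr8:128746982-128747281, plus strand: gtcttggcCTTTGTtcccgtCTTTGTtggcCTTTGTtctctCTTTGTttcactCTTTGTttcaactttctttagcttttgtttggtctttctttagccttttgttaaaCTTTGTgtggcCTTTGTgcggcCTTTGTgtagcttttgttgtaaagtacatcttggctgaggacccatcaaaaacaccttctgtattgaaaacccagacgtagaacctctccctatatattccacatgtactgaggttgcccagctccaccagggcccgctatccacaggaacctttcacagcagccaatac

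The Opalin window held 2 copies of ACAAAG, and 1 Myrf core, and 2.49% of all windows held as many copies of ACAAAG. The Mobp window held 8 copies of the Sox letters, all within a CT-rich stretch ahead of the start, and 3 of 33469 windows held as many. It held no Myrf core. The Aspa window (chr10:58438988-58439287, minus strand) held neither. A match of letters is not a bound site, and no binding was measured here.

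Total counts ran from 33505706 to 42684206 per library, and the 5 genes had between 32 and 6832 estimated counts in each library, so that all 5 passed the filter on low counts in every comparison. The labelled cell types were checked against their markers. The summed level of 15 compact and adaxonal myelin genes lay between 19632 and 38831 CPM (counts per 1000000 library counts, after TMM normalisation) in the OL libraries and between 2199 and 2525 in the OPC libraries. The summed level of 17 progenitor genes lay between 3235 and 4277 CPM in OL libraries and between 6215 and 7452 in OPC libraries. Gene by gene this list was divided. Against OPC anti-miR-ctl, edgeR called 9 of the 17 lower and 7 higher in OL miR-ctl, and 10 lower and 7 higher in OL miR-145+miR-219. The cultures also held transcripts of other cells: 12 astrocyte markers summed to between 6516 and 15809 CPM in the OL libraries, with no marker at 0. Gfap alone, at 4173 to 9676 CPM, made up most of each sum.

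By mean level among the OL groups, all 5 genes were highest in OL miR-145+miR-219, then in OL miR-145, then in OL miR-ctl. Opalin is given first. Its level was 33.2 and 71.8 CPM in replicates 1 and 2 of OL miR-145+miR-219, 25.6 and 64.3 CPM in OL miR-145, and 13.8 and 38.4 CPM in OL miR-ctl. In OPCs it was 4.07 and 3.56 CPM with anti-miR-145 and 4.27 and 6.07 CPM with anti-miR-ctl. The means fell in the order OL miR-145+miR-219 (52.5 ± 27.3 CPM, SD, n = 2), OL miR-145 (45.0 ± 27.3), OL miR-ctl (26.1 ± 17.4), OPC anti-miR-ctl (5.17 ± 1.28) and OPC anti-miR-145 (3.82 ± 0.359). Neighbouring OL groups overlapped, and every OL library lay above every OPC library.

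Mobp spanned the widest range of the 5. It stood at 98.5 and 191.9 CPM in OL miR-145+miR-219, 58.1 and 131.8 CPM in OL miR-145, and 14.9 and 68.6 CPM in OL miR-ctl. In OPCs it stood at 1.58 and 1.79 CPM with anti-miR-145 and at 3.25 and 4.27 CPM with anti-miR-ctl. The OL miR-145+miR-219 libraries were both above both OL miR-ctl libraries, while those of OL miR-145 overlapped with either. The control OL libraries differed from each other more than did those of Opalin or Aspa.

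Aspa was at 42.8 and 80.6 CPM in OL miR-145+miR-219, 33.0 and 63.9 CPM in OL miR-145, and 22.7 and 59.4 CPM in OL miR-ctl. It was at 5.40 and 4.88 CPM in OPC anti-miR-145 and at 5.47 and 6.95 CPM in OPC anti-miR-ctl. The order of its means was that of Opalin, and its OL groups were the closest together of the 5 genes, with means of 61.7 ± 26.8, 48.4 ± 21.8 and 41.0 ± 26.0 CPM (SD, n = 2).

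Mog and Ermn differed from the other 3 genes in that control OLs did not stand above OPCs. Mog was at 22.7 and 43.7 CPM in OL miR-145+miR-219, 17.7 and 38.7 CPM in OL miR-145 and 9.19 and 23.2 CPM in OL miR-ctl. It was at 9.73 and 9.84 CPM in OPC anti-miR-145 and at 11.5 and 11.8 CPM in OPC anti-miR-ctl. Replicate 1 of OL miR-ctl thus had less Mog than any OPC library, and replicate 2 more than any of them.

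Ermn had the lowest counts. It was at 8.30 and 17.4 CPM in OL miR-145+miR-219, 2.96 and 12.1 CPM in OL miR-145 and 0.803 and 5.52 CPM in OL miR-ctl, the lowest of these resting on 32 estimated counts. It was at 2.46 and 2.60 CPM in OPC anti-miR-145 and at 2.79 and 3.69 CPM in OPC anti-miR-ctl. The control OLs (3.16 ± 3.33 CPM, SD, n = 2) and control OPCs (3.24 ± 0.637) could not be separated, and replicate 1 of the former lay below all 4 OPC libraries.

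**Figure D1:**
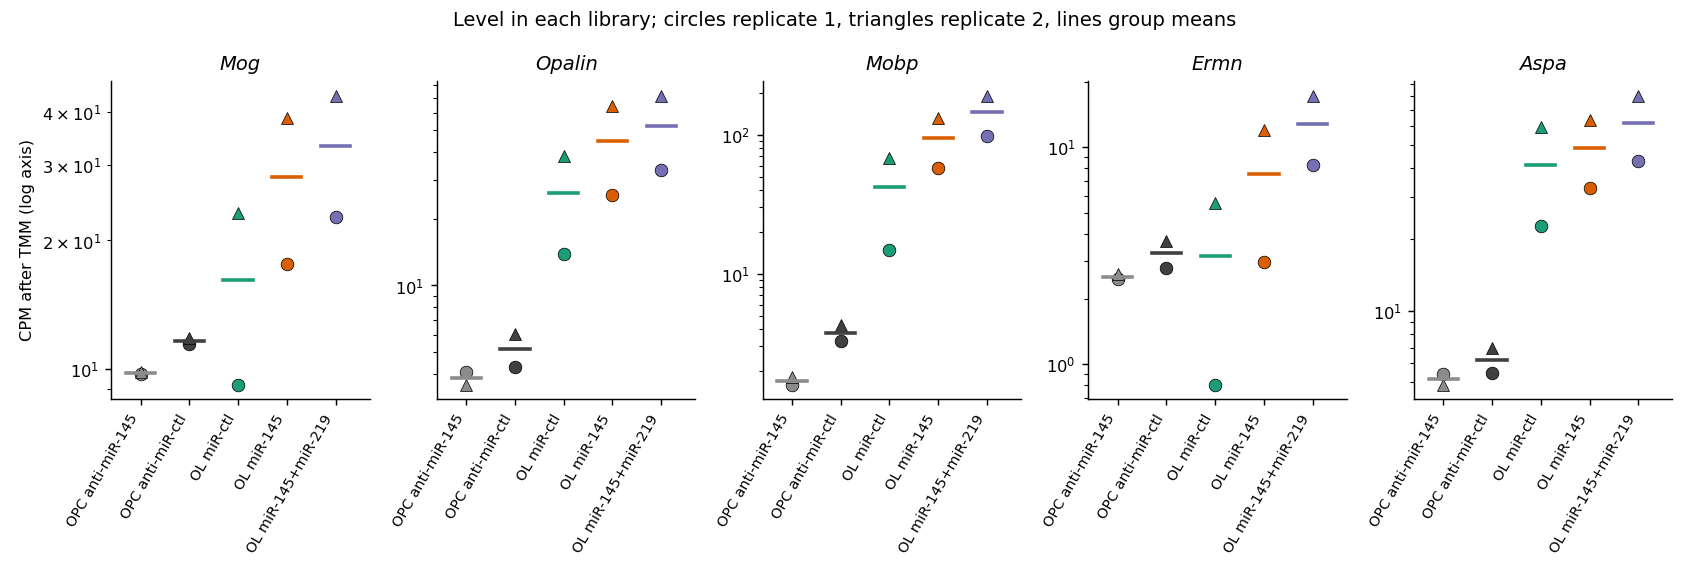
Level of each of the 5 genes in CPM (log axis) in each of the 10 libraries, by group; circles are replicate 1, triangles replicate 2 and lines the group means. In each of the 3 OL groups the triangle lies above the circle for all 5 genes, and the OL groups overlap except OL miR-145+miR-219 with OL miR-ctl for Mobp and Ermn.

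The libraries of an OL group differed from each other by more in these genes than in most. Replicate 2 exceeded replicate 1 in all 5 genes and all 3 OL groups, by between 1.89-fold (Aspa, OL miR-145+miR-219) and 6.87-fold (Ermn, OL miR-ctl). All 5 genes lay above the 95th percentile of the log2 ratio of replicate 2 to replicate 1 in each of the 3 OL groups, as did 1.45% of the 13190 genes with a mean of at least 1 CPM. The same ratio was between 0.875 and 1.42 in the OPC groups. In OPC anti-miR-ctl, where libraries differed less, Opalin, Ermn, Mobp and Aspa also lay above the 95th percentile of all genes. In bulk RNA, a smaller share of late OLs and less of these transcripts in each cell cannot be told apart.

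The order OL miR-145+miR-219 over OL miR-145 over OL miR-ctl held for all 5 genes among the libraries numbered 1 and again among those numbered 2. It held in both for 2.42% of the 13190 genes. Because the choice of genes fixed the direction between OL miR-145 and OL miR-ctl, nothing is read from the count. None of Mbp, Mag, Cnp, Myrf and Sox10 had this order in both. No source used here ties the libraries of one number to the same culture.

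**Figure D2:**
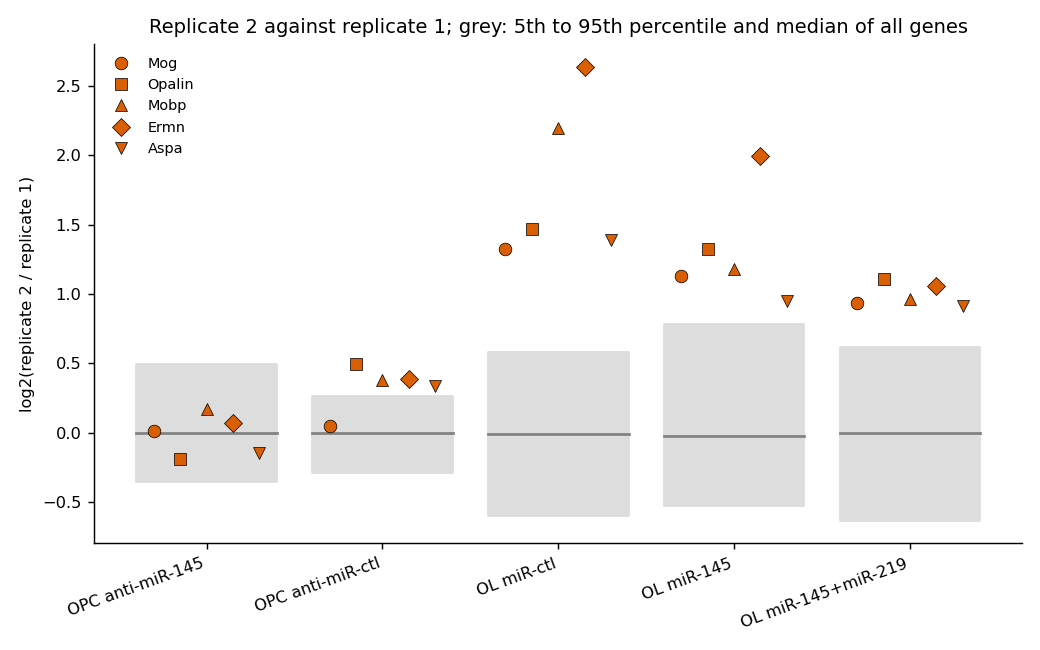
Log2 ratio of replicate 2 to replicate 1 within each group for the 5 genes (points); the grey band runs from the 5th to the 95th percentile of all genes with a mean of at least 1 CPM, with their median as a line. All 5 genes lie above the band in the 3 OL groups, and in OPC anti-miR-145 they lie within it. In OPC anti-miR-ctl the band ends at 0.26. Opalin (0.50), Ermn (0.39), Mobp (0.38) and Aspa (0.34) lie above it there, and Mog (0.05) lies within it.

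With the miR-145 mimic, the question was how OLs differ from those with miR-ctl. The log2 fold changes, which chose the genes, were 1.27 for Ermn (SE 1.00), 1.19 for Mobp (SE 0.74), 0.81 for Mog (SE 0.54), 0.79 for Opalin (SE 0.60) and 0.25 for Aspa (SE 0.52). The libraries of the 2 groups overlapped for each of the 5. Among all 15461 genes tested, 22.9% had both miR-145 libraries above both controls and 24.4% had both below. edgeR, with no term for the replicate number, called 0% of the genes, with 2067 genes at an unadjusted p under 0.05, and DESeq2 called 649. Without replicate 2 of OL miR-145, the log2 fold changes of Opalin, Ermn and Aspa were -0.02, -0.08 and -0.31, and those of Mog and Mobp were 0.13 and 0.48. Without replicate 1 of OL miR-ctl that of Aspa was -0.28, and without replicate 2 of OL miR-ctl those of Mobp and Ermn were 2.67 and 3.23. Aspa, which splits acetate from N-acetylaspartate in OLs, was thus the member whose sign depended on a library in both groups. Leaving out a library makes the replicate numbers unequal between groups, and replicate 2 was higher in every OL group. Within each number, Aspa was higher in OL miR-145 (33.0 against 22.7 CPM, and 63.9 against 59.4 CPM).

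The early and structural genes used as references lay on the other side of 0. The log2 fold change was -0.19 for Mbp (SE 0.43), -0.23 for Mag (SE 0.37), -0.36 for Cnp (SE 0.20), -0.36 for Myrf (SE 0.20) and -0.59 for Sox10 (SE 0.12). None passed the edgeR test, with adjusted p between 0.167 (Sox10) and 0.880 (Mbp). DESeq2 called Sox10 (adjusted p = 0.000854) and none of the others named here. A sign change between members and references was part of the choice of the 5 genes.

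Counts of each gene per 1000 counts of Mbp in the same library set the late genes against the bulk of myelin transcript. This scale was not planned in advance. Mog was at 1.48 and 1.77 per 1000 Mbp counts in OL miR-ctl, 2.84 and 3.63 in OL miR-145, and 2.83 and 2.81 in OL miR-145+miR-219. Mobp was at 2.40 and 5.23 in OL miR-ctl, 9.34 and 12.3 in OL miR-145, and 12.2 and 12.4 in OL miR-145+miR-219. On this scale the libraries of OL miR-145 and of OL miR-145+miR-219 lay above both controls. The replicates of OL miR-145+miR-219 were close to each other.

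Opalin was at 2.22 and 2.93 per 1000 Mbp counts in OL miR-ctl, 4.13 and 6.02 in OL miR-145, and 4.12 and 4.62 in OL miR-145+miR-219. Ermn was at 0.129 and 0.421 in OL miR-ctl, 0.476 and 1.13 in OL miR-145, and 1.03 and 1.12 in OL miR-145+miR-219. Aspa was at 3.65 and 4.53, 5.31 and 5.98, and 5.31 and 5.19 in the same groups. All 5 genes had a ratio to Mbp above both controls in both OL miR-145 libraries, as had 9.08% of all genes tested, and in both OL miR-145+miR-219 libraries, as had 2.22%. The 2 counts share the control libraries, and the first belongs to the comparison that chose the genes. The mean ratio in OL miR-145 was 2.93 times the control for Ermn, 2.84 times for Mobp, 1.99 times for Mog, 1.97 times for Opalin and 1.38 times for Aspa. With Cnp, which encodes a myelin phosphodiesterase, as the reference, an alternative chosen after seeing the data, Ermn (1.19 and 3.91 per 1000 Cnp counts in OL miR-145, against 0.253 and 1.37 in OL miR-ctl) and Aspa (13.3 and 20.7 against 7.14 and 14.7) overlapped between OL miR-145 and its controls. OPCs had little Mbp (234 to 279 CPM) and ratios of their own, for Mog 39.3 and 42.1 with anti-miR-145 and 46.2 and 42.4 with anti-miR-ctl. The ratio of Mog was thus higher in every OPC library than in any OL library. The same held for Opalin, Ermn and Aspa, while the ratios of Mobp overlapped between OPC and OL libraries.

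**Figure D3:**
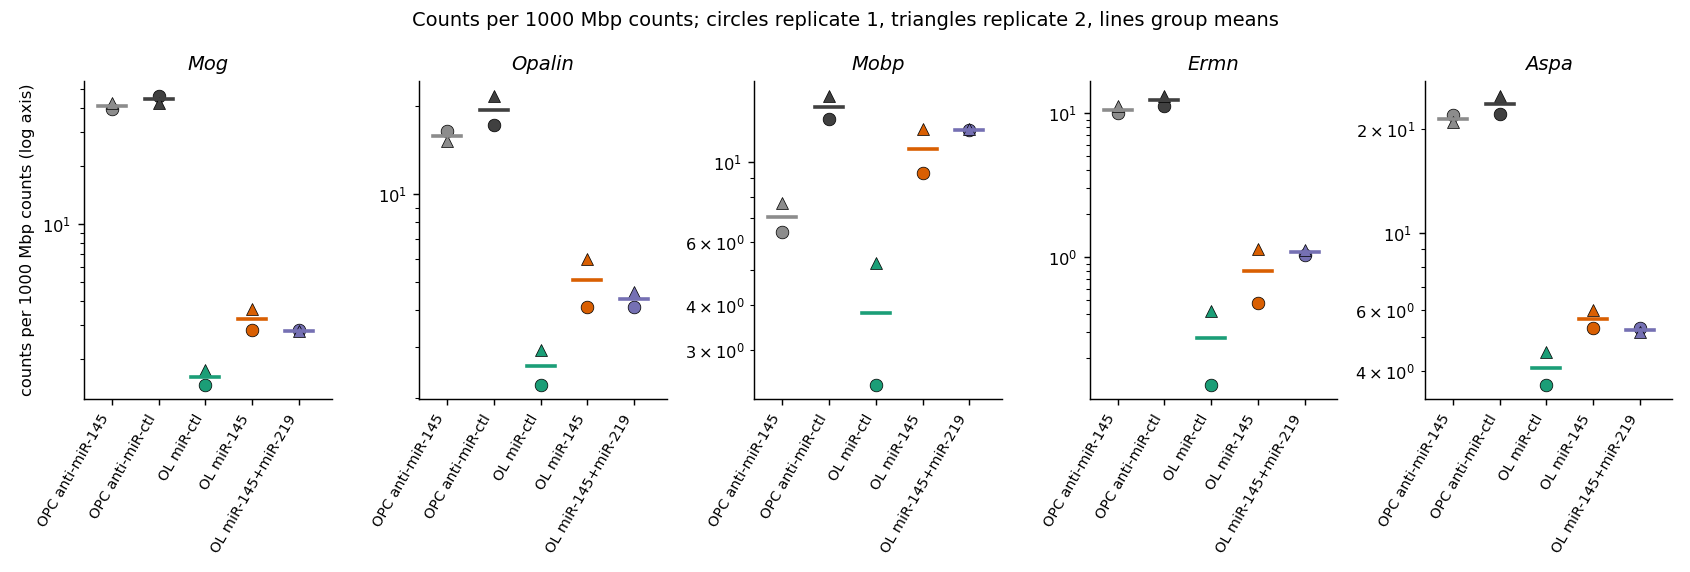
Counts of each of the 5 genes per 1000 Mbp counts in the same library (log axis), by group; circles are replicate 1, triangles replicate 2 and lines the group means. For all 5 genes both libraries of OL miR-145 and of OL miR-145+miR-219 lie above both OL miR-ctl libraries; Mog runs from 1.48 in OL miR-ctl to 46.2 in OPC anti-miR-ctl.

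Adding miR-219 was compared with the same controls. With both mimics the log2 fold changes over OL miR-ctl were 2.05 for Ermn (SE 0.88), 1.81 for Mobp (SE 0.75), 1.05 for Mog (SE 0.52), 1.02 for Opalin (SE 0.58) and 0.60 for Aspa (SE 0.53). Mobp and Ermn, 2 of the 5, had both libraries above both controls, as had 17.2% of 15436 genes. These values share their controls with the comparison that chose the genes and carry no test. edgeR called 0% of all genes, with 956 at an unadjusted p under 0.05, and DESeq2 called 106. Over OL miR-145 alone, OL miR-145+miR-219 differed by 0.75 for Ermn (SE 0.73), 0.60 for Mobp (SE 0.50), 0.33 for Aspa (SE 0.44), 0.22 for Mog (SE 0.48) and 0.21 for Opalin (SE 0.56), each close to its SE or smaller. The libraries overlapped for all 5 genes, where 13.2% of all genes had both above, and edgeR called 0% of 15501 genes, with 228 at an unadjusted p under 0.05 and 9 called by DESeq2. For the 5 genes the difference between these groups was smaller than the spread between replicates.

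Other genes of the mature OL were placed beside the 5 through lists of markers. In OL miR-145 against OL miR-ctl, 22 of 28 other mature OL genes had a log2 fold change above 0, with a median of 0.46 against -0.01 for all genes, and edgeR called 0 and DESeq2 3. Car2, a carbonic anhydrase of OLs, had 1.71 (SE 0.35) and Hapln2, a link protein of the node of Ranvier, 1.63 (SE 0.81). Ptgds, a prostaglandin D synthase, had -0.91 (SE 0.36) and Enpp2 (autotaxin) -0.70 (SE 0.35). Of the 28, 17 had a ratio to Mbp above both controls in both libraries.

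The list of compact and adaxonal myelin genes was divided. Its median log2 fold change was -0.23, with 6 of 15 above 0. Mal, a proteolipid of late myelin, had 1.81 (SE 0.98), Pmp22 1.05 (SE 0.17) and Cryab, a small heat shock protein, 0.92 (SE 0.50), while Cldn11, the claudin of myelin tight junctions, had -0.47 (SE 0.37). edgeR called 0 of the 15, and DESeq2 called 1 (Pmp22).

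Genes of premyelinating OLs were on the opposite side from the 5. None of 15 had a log2 fold change above 0, and the median was -0.56. In 12, both miR-145 libraries lay below both controls, as in 24.4% of all genes tested. Lower levels of earlier genes in this contrast were part of the choice of the 5, so nothing is read from these counts. Enpp6 had -0.81 (SE 0.28), Ust -0.79 (SE 0.27) and Bmp4 -0.76 (SE 0.26). Of 15 transcription factors of the lineage, 12 were at or below 0, among them Zfp488 (-0.87), Nkx2-2 (-0.83) and Myt1 (-0.76), and the list's median was -0.37. edgeR called 0 genes of either list, and DESeq2 called 5 of the premyelinating genes and 5 of the transcription factors.

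The partners of single members were examined too. Of 7 tested genes from a list of N-acetylaspartate handling and related enzymes, Aspa apart, 5 had a log2 fold change above 0. Among these were Folh1, which releases N-acetylaspartate from its dipeptide with glutamate (1.53, SE 0.23), and Slc13a3, a carrier of dicarboxylates (1.32, SE 0.24). Both lay above the controls in both libraries, unlike Aspa. Of 11 ERM proteins and actin regulators related to Ermn, 8 were above 0, with a median of 0.22. Ezr (ezrin) had 0.62 (SE 0.14) and Msn (moesin) 0.60 (SE 0.16). Of 16 genes of myelin lipid synthesis, 3 were above 0 and the median was -0.24. edgeR called 0 genes of these 3 lists, and DESeq2 called 3 of N-acetylaspartate handling, 2 of the ERM list (Ezr and Msn) and 1 of lipid synthesis.

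Markers of other cells also had higher means with the mimic. All 12 astrocyte markers had a log2 fold change above 0, with a median of 0.88, and their summed level was 10945 to 15809 CPM in OL miR-145, 7716 to 13033 in OL miR-145+miR-219 and 6516 to 7681 in OL miR-ctl. Gfap alone made up most of each sum. It stood at 9676 and 6713 CPM in OL miR-145, 7708 and 4865 in OL miR-145+miR-219, and 4795 and 4173 in OL miR-ctl. Of 15 microglia markers 14 were above 0 (median 0.61, summed 580 to 1288 CPM against 545 to 770 in the controls), and 7 of 7 fibroblast and mural markers were (median 1.15, summed 64.5 to 104 against 29.5 to 39.3 CPM). edgeR called 0 of these markers, and DESeq2 called 7 of astrocytes, 1 of microglia and 3 of fibroblasts and mural cells. No astrocyte or microglia marker was at 0. Their part in the values of the 5 genes was not tested.

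**Figure D4:**
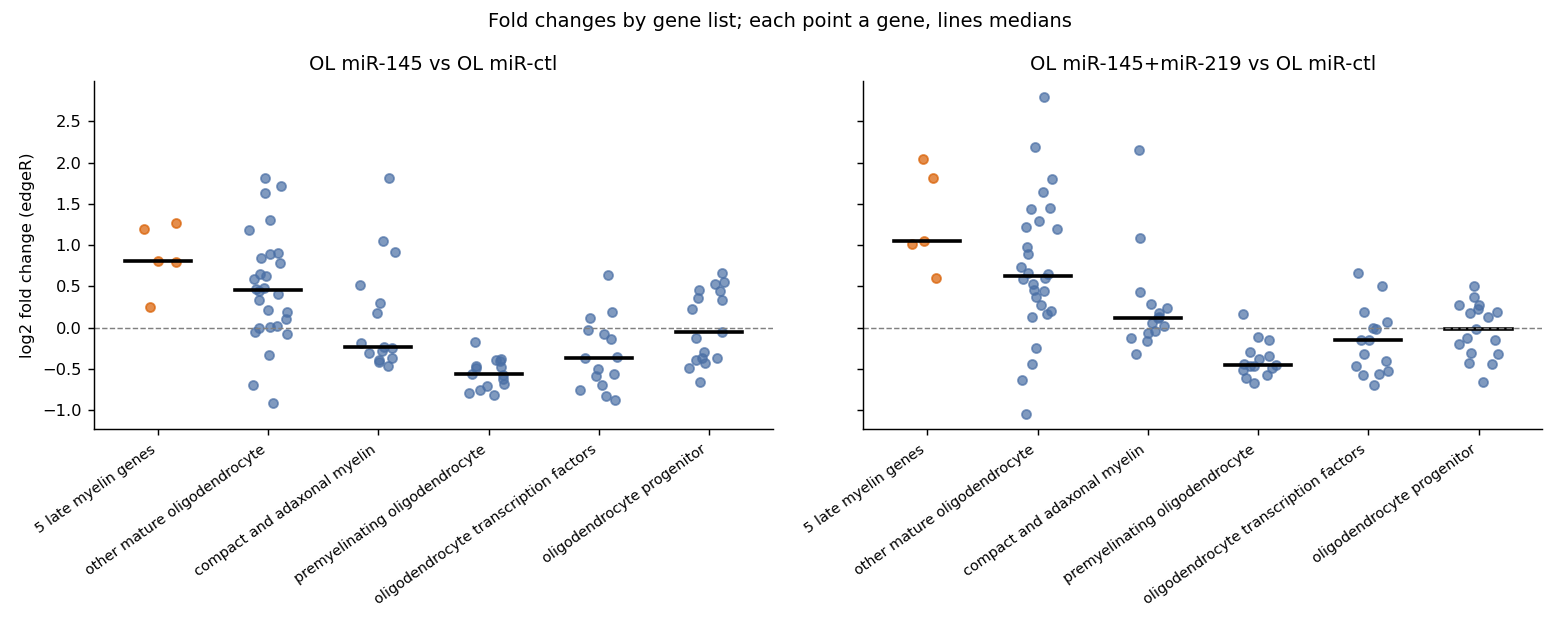
Log2 fold change of each gene (points) by list, with the median as a line, in OL miR-145 and in OL miR-145+miR-219, each against OL miR-ctl; the 2 panels share their controls. The 5 genes (orange, the choice of which used the left panel) have medians of 0.81 and 1.05, other mature OL genes 0.46 and 0.62, and premyelinating genes -0.56 and -0.45.

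In OPCs, where none of the libraries had been used to choose the genes, anti-miR-145 was tested against anti-miR-ctl after 24 h. Mobp was the 1 of the 5 that changed, falling from 3.76 ± 0.717 to 1.69 ± 0.149 CPM (SD, 2 libraries in each group), which is -1.16 on the log2 scale (SE 0.22, edgeR adjusted p = 0.00848, DESeq2 adjusted p = 0.0025). By edgeR, 16.0% of 15496 genes were called lower and 12.1% higher, so that 1 of 5 is near the share of all genes. In a single fit over all 10 libraries the change of Mobp did not pass (edgeR adjusted p = 0.374, log2 fold change -1.15). Mobp rested on 63 to 156 counts per library here.

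The other 4 members had log2 fold changes of the same sign that did not pass. They were -0.45 for Opalin (SE 0.21, edgeR adjusted p = 0.159), -0.37 for Ermn (SE 0.21, adjusted p = 0.232), -0.28 for Aspa (SE 0.17, adjusted p = 0.254) and -0.27 for Mog (SE 0.11, adjusted p = 0.105). All 5 genes had both anti-miR-145 libraries below both controls, as had 32.7% of all genes tested. The median of the 5 was -0.37, against 0.00 for all genes.

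Around them the lineage genes moved in both directions. Myrf, the transcription factor that drives myelin genes, fell by 1.24 on the log2 scale (SE 0.10, edgeR adjusted p = 0.000203), whereas Sox10 rose by 0.33 (SE 0.08, adjusted p = 0.0252) and Mag by 0.38 (SE 0.11, adjusted p = 0.0362; by DESeq2 it did not pass, adjusted p = 0.0899). Mbp had -0.15 (SE 0.09, adjusted p = 0.290) and Cnp -0.17 (SE 0.08, adjusted p = 0.161). Of 25 other mature OL genes tested, 8 fell and 2 rose. Anln (anillin, of the septin scaffold) fell by 1.40, and Il33 and Adamts4 rose by 1.19 and 1.16. Of 15 compact and adaxonal genes, 4 fell, among them Plekhb1 (-1.17) and Pmp22 (-0.84), and 3 rose, among them Cldn11 (1.15). Of 15 transcription factors 5 rose, Sox8 (1.15) and Nkx2-2 (0.86) among them, and Myrf alone fell.

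The genes related to Aspa and Ermn were also divided in OPCs. Of 6 tested genes from the list of N-acetylaspartate handling and related enzymes, 3 fell, led by Slc13a3 (-2.48) and Folh1 (-1.11), and Acss2, which activates acetate, rose by 0.48. Of 11 ERM proteins and actin regulators 4 fell, among them Cobl (-1.14) and Was (-1.05), and Slc9a3r2 rose by 1.15. Astrocyte markers changed in both directions as well, 3 called higher and 5 lower of 11, with a summed level of 646 to 741 CPM against 736 to 774 in the controls, and of 15 microglia markers 8 were called higher and 6 lower. Their part in the change of Mobp was not tested.

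OL miR-145+miR-219 was then tested against OPC anti-miR-ctl, with stage, culture and agents differing together. These libraries had not been used to choose the genes, but the OLs carried the miR-145 mimic, whose contrast chose the genes. All 5 genes rose, where 28.9% of 15785 genes were called higher. Mobp rose by 5.26 on the log2 scale (SE 0.40, edgeR adjusted p = 0.000462), or 38.4-fold. Opalin rose by 3.33 (SE 0.43, adjusted p = 0.00231, 10.1-fold) and Aspa by 3.30 (SE 0.35, adjusted p = 0.00121, 9.86-fold). Ermn rose by 1.97 (SE 0.40, adjusted p = 0.00991, 3.92-fold) and Mog by 1.50 (SE 0.32, adjusted p = 0.0118, 2.82-fold). The calls of Mog and Ermn were lost without either OPC anti-miR-ctl library (adjusted p = 0.0884 and 0.0837 for Mog, 0.0842 and 0.0589 for Ermn), and that of Ermn in the fit over all 10 libraries (adjusted p = 0.0733).

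Among the references Mag rose by 6.88 (SE 0.37), Mbp by 5.47 (SE 0.38), Myrf by 2.79 (SE 0.24) and Cnp by 2.22 (SE 0.20), and Sox10 had 0.22 (SE 0.19, edgeR adjusted p = 0.362). The list of premyelinating genes rose in 15 of 15, compact and adaxonal genes in 12 of 15 with 1 lower (Omg), and other mature OL genes in 20 of 28 with 5 lower. Astrocyte markers were called higher in 10 of 12, and their summed level was 7716 to 13033 CPM in these OLs against 736 to 774 in the OPC controls. Gfap alone stood at 7708 and 4865 CPM in these OLs and at 8.13 and 7.80 CPM in the OPC controls. The part of the astrocyte markers in the rise of the 5 genes was not tested.

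Control OLs and control OPCs were set side by side without a test of the 5 genes, since the OL controls entered their choice. Mobp was 3.46 higher on the log2 scale (SE 0.77), Aspa 2.71 (SE 0.49) and Opalin 2.32 (SE 0.52), and these 3 of 5 had both libraries above, as had 41.7% of 15721 genes. Mog differed by 0.46 (SE 0.42) and Ermn by -0.06 (SE 0.81). Without replicate 2 of OL miR-ctl, Mog and Ermn were at -0.36 and -2.02. Mbp, in the same libraries, rose by 5.18 (SE 0.41, edgeR adjusted p = 0.000435).

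**Figure D5:**
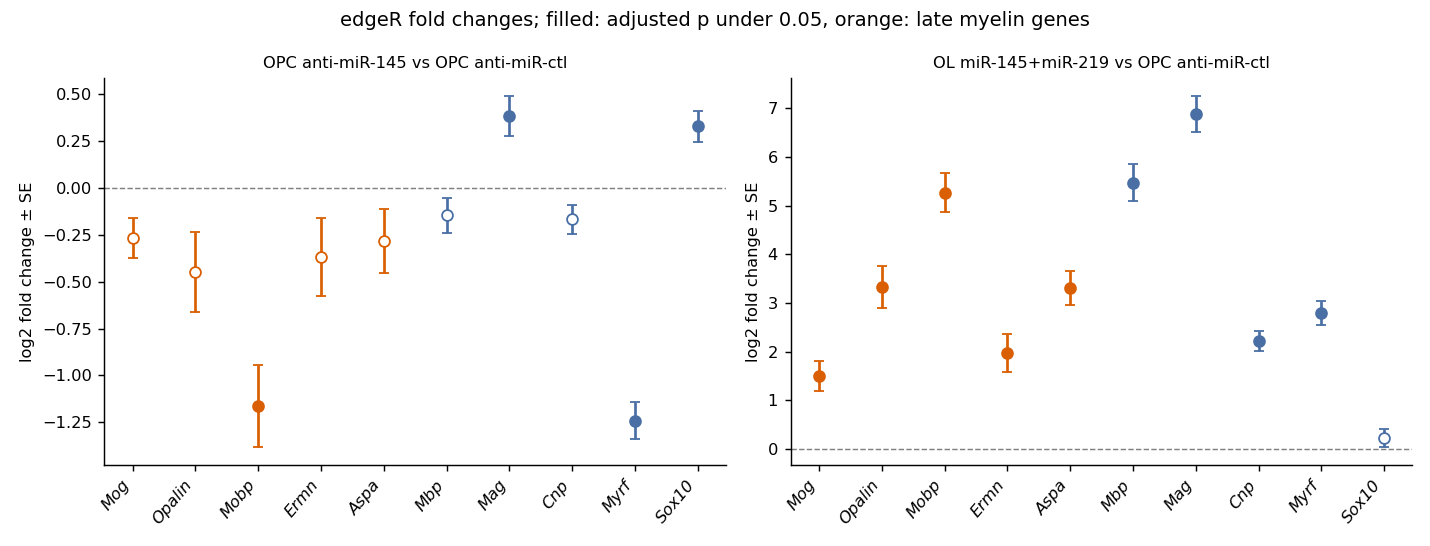
Log2 fold changes with their SE for the 5 genes (orange) and 5 reference genes (blue) in the 2 comparisons whose libraries had not been used to choose the genes; filled points have an edgeR adjusted p under 0.05. In OPCs Mobp at -1.16 is the filled point among the 5, and against OPCs all 5 rise, from 1.50 (Mog) to 5.26 (Mobp).

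The genes whose levels followed the 5 most closely were listed as a description, from Pearson's r with the mean standardised profile on the log2(CPM + 1) scale. Over the 6 OL libraries, among 11922 genes, these were Myo1d (r = 0.998), an unconventional myosin, Dusp28 (0.998), Trim36 (0.995), Pex5l (0.995) and Kndc1 (0.992). Mbp had 0.835, Mag 0.804, Cnp 0.373, Myrf 0.354 and Sox10 -0.16. The points share the groups and the replicate difference described above. Among themselves, Mog and Opalin were the most alike (r = 0.997) and Mobp and Aspa the least (r = 0.909). The gene most like each was Dusp28 for Mog, Dusp16 for Opalin, Deptor for Mobp, Myo1d for Ermn and Slc12a2, a chloride cotransporter, for Aspa.

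Over all 10 libraries, among 12029 genes, those most alike included Plekhh1 (r = 0.993), Trim36 (0.990), Tmem200c (0.989) and Carns1 (0.987), the enzyme that makes carnosine and homocarnosine. In OPCs with anti-miR-145, Myo1d fell by 1.12 on the log2 scale (SE 0.11), Kndc1 by 0.93 (SE 0.13) and Trim36 by 0.58 (SE 0.16), all called by edgeR, while Dusp28 (-0.03, SE 0.35) and Pex5l (edgeR adjusted p = 0.0798) did not pass. Between OL miR-145+miR-219 and OPC anti-miR-ctl, Myo1d, Dusp28, Trim36 and Kndc1 rose and Pex5l had -0.21 (SE 0.33).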

How the data were processed

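The 10 libraries of primary rat OLs and OPCs formed 5 groups of 2, named from the sample titles. Reads were quantified by the authors with Salmon 0.12.0 against rat GENCODE transcripts and summed to genes by tximport, and the deposited values are unnormalized estimated counts. These were rounded; 16.0% to 17.5% of a library's values were not whole. A second table, which the authors made with DESeq2 from OL miR-145 and OL miR-ctl, was used for gene symbols only (14561 of 16129 genes). The mean normalized signal, log2 fold change with its error, Wald score and p-values that the authors deposited in it were not used.

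Each comparison was fitted on its 4 libraries with edgeR 4.0.16 (glmQLFit, glmQLFTest, TMM, at least 5 counts in at least 2 libraries, two-sided, Benjamini-Hochberg adjusted p under 0.05 over all genes) in R 4.3.3, with limma 3.58.1 loaded. The SE of a log2 fold change is its absolute value divided by the square root of the F statistic of glmQLFTest. Levels are CPM after TMM over 10 libraries. DESeq2 1.42.0, its size factors within edgeR, 2 other filters, a fit over 10 libraries, a replicate block, each library left out, and other scales were alternatives. Functions were tested on simulated data. Sequences came from RefSeq (GRCr8); the authors' build differed, so no coordinates of the files were used. Figures used Python 3.11.15 with matplotlib 3.10.9, numpy 2.4.6 and pandas 2.3.3.

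Named genes were the 5 members, 5 references, up to 3 genes with the largest positive and 3 with the largest negative fold change of each list among those with a mean of at least 1 CPM, the 5 most like the members over 6 and over 10 libraries, and the most like each member; a few genes that meet this rule are not reported here. The members and lists were chosen with earlier results of these data known. The ratio to Mbp was not planned in advance. The ratio to Cnp in place of Mbp, and likeness without each OL library, were added after seeing the data. Mature miR-145 was not analysed here. Depth limits only genes of low counts; 2 libraries per group limit every comparison.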

Additional observations from a re-analysis of the deposited data

How the results depend on the processing

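The 5 genes kept their signs in the tested comparisons under every alternative run, and the lost calls are given beside those results. edgeR called 0 genes between OL miR-145 and OL miR-ctl, where DESeq2 called 649, the fit over all 10 libraries 79 and the replicate block 2272. Between OL miR-145+miR-219 and OL miR-ctl it called 0, where DESeq2 called 106, no filter on low counts 1 and the replicate block 132. Between OL miR-145+miR-219 and OL miR-145 it called 0, DESeq2 9 and the replicate block 184. In OPCs it called 4348, the replicate block 3963 and the fit over all 10 libraries 2657; leaving out 1 library gave between 2424 and 7130. Leaving out 1 library gave 5016 to 10591 calls between control OLs and control OPCs (9042 with all) and 4607 to 10690 between OL miR-145+miR-219 and OPC anti-miR-ctl (9080 with all). Libraries of the same number deviated together among OL groups (r = 0.396 to 0.622 over 16339 genes) and not in OPCs (r = -0.14), but with 2 numbers and no label of a shared culture they were not treated as paired. Of the 5 genes most like the members over 6 libraries, 3 stayed with a pseudocount of 0.1 and 0 with Spearman's rho, and 0 to 3 stayed when 1 OL library was left out, so this list is not stable. The cause of these changes was not tested. Counting depth limits Ermn in OL miR-ctl and Mobp in OPCs.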
